A study of Mus musculus with 27 samples.

Results

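RNA from thyroid tumor cell lines that had lost one or the other of 2 subunits of the SWI/SNF chromatin remodeler was compared directly: 3 lines with an Arid1a knockout (KO) against 3 lines with a Smarcb1 KO, all in vehicle. These 6 libraries were chosen by their genotype and treatment labels, out of 27 in the series. All 6 lines also carry the Braf V600E allele, the mutation that drives the tumors, so that the groups differ by the subunit lost and by whatever distinguishes the lines. Arid1a KO lines are BA45198, BA47473 and BA49112, and Smarcb1 KO lines are BS53736, BS53958 and BS53965. Each line was grown out from a dissected mouse tumor, and 1 library was made per line. The labels used here do not say how the alleles were deleted or in which cells, nor the age and sex of the mice. The vehicle was Trappsol, and the labels do not settle whether bovine TSH was present in that arm. The other vehicle libraries, from 3 lines with the Braf allele alone (B47275, B48051 and B52482) and 3 with an Arid2 KO on the Braf background (AB51189, AB52980 and AB55694), serve as further levels and share the fit. The same lines after 8 days in 300 nM of the RAF and MEK inhibitor CH5126766 (CKI) are set beside the vehicle values at the end.

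SWI/SNF complexes use the energy of ATP to move nucleosomes and so open promoters and enhancers. SMARCB1 (also called SNF5 or INI1) is a core subunit of the canonical BAF and PBAF complexes and is absent from the non-canonical form. ARID1A is found in canonical BAF only, where ARID1B can take its place. ARID1A is among the most often mutated subunits in carcinomas, and SMARCB1 is the subunit lost in rhabdoid tumors. BRAF V600E signals constantly through MEK and ERK, which in thyroid cells turns down the genes of hormone synthesis.

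Total counts per library lay between 20043316 and 24095059 in the 6 lines. Levels are given as CPM, the read count of a gene scaled to a common library size after TMM scaling (trimmed mean of M values), in the line order given above. Differences are log2 Arid1a KO minus Smarcb1 KO with the standard error (SE) from edgeR's quasi-likelihood fit of the 12 vehicle libraries. A gene is called when its Benjamini-Hochberg adjusted p over all 14317 genes tested is under 0.05, and rose or fell is used for genes called higher or lower in Arid1a KO. Nothing says how many mice the lines came from, so p-values measure the spread between these lines. Correlations of log2 CPM over genes were 0.931 to 0.952 between the Arid1a KO lines, 0.894 to 0.932 between the Smarcb1 KO lines, and 0.785 to 0.846 across the genotypes.

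Individual lines stood apart in ways that touch the results below. BS53958 alone among the Smarcb1 KO lines carried epithelial genes at intermediate levels, BA45198 carried interferon-induced genes, and BS53965 carried the endothelial genes Cdh5 (651 CPM) and Flt1 (412 CPM). Xist, the RNA of the inactive X chromosome, was at 975 CPM in BS53965 and at 0.0855 to 0.28 CPM in the other 5 lines. Ddx3y, a gene of the Y chromosome, was at 0 in BS53965 and between 35.3 and 121 CPM in the other 5. None of 5 sex-linked genes was called between the genotypes by edgeR, DESeq2 or limma-voom, and 0 had an unadjusted p under 0.05.

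Smarcb1, the first of the targeted genes, was at 94.4, 97.3 and 96.1 CPM in the Arid1a KO lines and at 0.0467, 1.17 and 0.17 CPM in the Smarcb1 KO lines, a log2 difference of 7.70 ± 0.80 (SE, adjusted p = 0.0014). Braf lines held it at 71.8, 84.8 and 67.2 CPM. Arid1a was at 95.5, 68.3 and 76.1 CPM in the Arid1a KO lines and at 342, 230 and 280 CPM in the Smarcb1 KO lines (-1.83 ± 0.18, adjusted p = 0.00136). The 3 Arid1a KO values were the lowest of the 12 vehicle lines, the Braf lines lying at 129, 132 and 135 CPM. The counts cover the whole gene and the deleted exons are not given, so the Arid1a transcript that remains does not by itself check the label. Both calls held in all 13 alternative fits.

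Of the 14317 genes tested, 1733 were called (12.1%), 973 higher in Arid1a KO (6.8%) and 760 lower (5.31%). These shares are the background for the counts of every gene list below. The 2 groups of lines did not overlap in 36.1% of all genes tested and in 1719 of the 1733 called. The genes that rose did so by more: their median difference was 3.60 on the log2 scale, against 1.72 for those that fell. Among those that rose, 654 differed by at least 2 on the log2 scale and 64 had no count in any Smarcb1 KO line, whereas 323 of those that fell differed by at least 2 and 4 had no count in any Arid1a KO line. The median over all genes tested was -0.03. With 1 line left out the count fell to between 753 and 1339, and 514 of the 1733 genes were called in all 6 such fits. In all 13 alternatives together 424 genes were called, 264 higher and 160 lower. Without BA47473 the share of calls that were higher went from 56.1% to 68.6%.

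**Figure D1:**
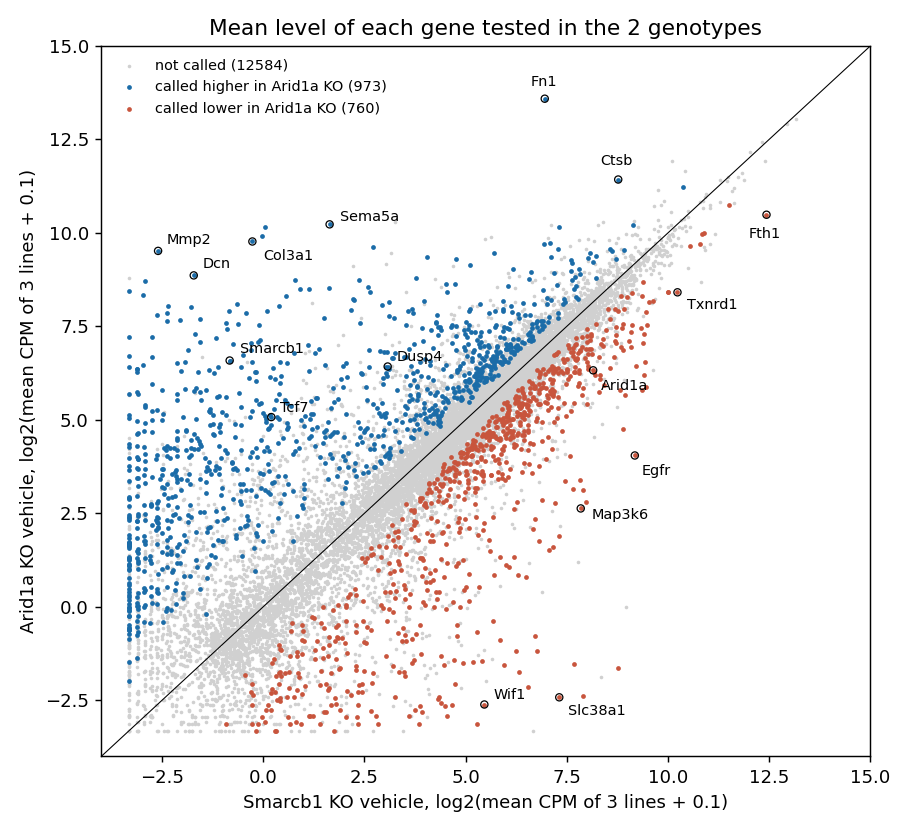
Mean CPM of the 3 Smarcb1 KO lines (x axis) and the 3 Arid1a KO lines (y axis) for each of the 14317 genes tested, as log2(mean CPM + 0.1), with the 973 genes called higher in Arid1a KO in blue, the 760 called lower in red and the line of equal levels. Genes called higher reach further from the line than genes called lower, and many of them sit at the left edge, where the Smarcb1 KO lines had almost no counts.

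Many extracellular matrix genes rose. The matrix is the mesh of collagens, glycoproteins and proteoglycans that cells secrete and attach to. Of 30 matrix glycoproteins and proteoglycans tested (33 listed), 10 rose and none fell, and their median difference was 3.64, against -0.03 for all genes. Dcn, the collagen-binding proteoglycan decorin, was at 1012, 157 and 227 CPM in the Arid1a KO lines and at 0.514, 0.0974 and 0 CPM in the Smarcb1 KO lines (11.14 ± 1.71, adjusted p = 0.00556). Fbn2, a fibrillin of elastic microfibrils, was at 353, 187 and 428 CPM against 0, 0 and 0.085 CPM (adjusted p = 0.00463), a ratio of pooled counts of 10600 with an exact Poisson interval from 2920 to 87100. Mgp, matrix Gla protein, an inhibitor of calcification, was at 764, 185 and 86.0 CPM and had no count in the Smarcb1 KO lines, hence at least 7025-fold higher (adjusted p = 0.0139). In none of these 3 genes did the groups come near to overlapping, and all 3 were also low in the Braf lines, with at most 7.12 CPM for Dcn, 2.82 CPM for Fbn2 and 1.23 CPM for Mgp.

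Fibronectin followed another course across the lines. Fn1, the glycoprotein that links integrins to collagen, was at 14958, 12332 and 9665 CPM in Arid1a KO, at 4.06, 364 and 3.53 CPM in Smarcb1 KO and at 11689, 5520 and 19194 CPM in Braf lines (6.64 ± 1.71, adjusted p = 0.0338). Its rise in CPM was the largest among called genes without overlap and with a mean log2 CPM of at least 2. For Fn1 the Smarcb1 KO lines stood far below the other genotypes, with BS53958 between. The Fn1 call was kept without BS53958 and was lost without any one of the other 5 lines (highest adjusted p = 0.0771). It was also lost in the edgeR fit of only the 6 compared libraries (adjusted p = 0.101). Emilin1, an elastic fiber glycoprotein, rose from at most 0.925 CPM to 61.1, 21.0 and 19.3 CPM (adjusted p = 0.0159) and lost its call without BS53736 or BS53965. The remaining glycoprotein and proteoglycan genes that rose were Lum, Bgn, Fbln5, Tnc and Lama5. Of these, Fbln5 lost its call without any 1 line, Tnc without 5 of the 6 in turn, Lum without 4, Bgn without 3 and Lama5 without BA45198. With a line left out, 4 to 9 members of the list rose and at most 1 fell.

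Among 24 collagens tested (26 listed), 5 rose and 1 fell, with a median difference of 1.58. Col6a3, a chain of the beaded-filament collagen VI, was at 198, 134 and 114 CPM in Arid1a KO and had no count in Smarcb1 KO, at least 3185-fold higher (adjusted p = 0.00394). Col3a1, a fibrillar collagen of loose tissue, was at 1189, 1162 and 267 CPM against 0.467, 0.828 and 0.893 CPM (10.21 ± 1.64, adjusted p = 0.00638). Col12a1, which binds to fibrils, was at 86.0, 21.9 and 19.3 CPM against 0.327, 1.41 and 0.765 CPM (5.66 ± 0.91, adjusted p = 0.00638). Braf lines held Col12a1 at 187, 46.6 and 273 CPM, so that here the Smarcb1 KO lines were the low ones, while Col6a3 reached at most 12.7 CPM in Braf lines. Col16a1 and Col1a2 also rose, the call of Col16a1 being lost without BS53736 or BS53965 and that of Col1a2 without 4 of the 6 lines in turn. With a line left out, 3 to 5 collagens rose. Col7a1, the anchoring-fibril collagen made by epithelia, fell from 1.68, 11.8 and 12.7 CPM in Smarcb1 KO to 1.03, 1.63 and 0.983 CPM (-2.84 ± 0.75, adjusted p = 0.0362), and kept its call without BS53736 only.

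Enzymes that cut the matrix, and their inhibitors, counted 6 that rose and 1 that fell of 28 tested (29 listed, median difference 0.66). Mmp2, gelatinase A, was at 587, 1383 and 229 CPM against 0, 0.195 and 0 CPM (13.40 ± 2.51, adjusted p = 0.0113). Serpine2, an inhibitor of thrombin and urokinase, was at 262, 388 and 174 CPM against 0.701, 0.877 and 0.0425 CPM (9.0 ± 1.28, adjusted p = 0.00444). Mmp19, another metalloproteinase, was at 47.1, 69.2 and 32.9 CPM against 0.42, 0.341 and 0.34 CPM (adjusted p = 0.00932). Adam19, Timp3 and Mmp11 rose too, Adam19 losing its call without BS53965, Mmp11 without BS53736, and Timp3 without any one of the 3 Smarcb1 KO lines. Adamts5, an aggrecanase, fell (-3.05 ± 0.83, adjusted p = 0.0404) and kept its call in 1 of the 6 fits with a line left out. In the Braf lines Mmp2 spread from 0.462 to 153 CPM, between the knockout genotypes and overlapping neither. Mmp19 spread there from 1.13 to 53.5 CPM, overlapping the Arid1a KO lines only.

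Genes of mesenchymal identity and of contractile fibers went the same way in smaller numbers. Of 21 mesenchymal genes tested (24 listed), 4 rose and none fell, with a median difference of 1.82. Snai2, the transcription factor SLUG, was at 106, 124 and 45.3 CPM against 3.55, 7.5 and 0.935 CPM (4.52 ± 0.92, adjusted p = 0.0146) and lost its call without BS53736 (adjusted p = 0.0514). Twist2, Loxl2 and the fibronectin receptor chain Itga5 were called as well, but Twist2 and Loxl2 lost their calls without any 1 line and Itga5 without 5 of the 6 in turn, so that 0 to 2 members rose with a line left out. Of 13 smooth muscle contractile genes tested (17 listed), 3 rose and none fell, with a median of 0.77. Tpm2, a tropomyosin, was at 43.9, 37.4 and 35 CPM against 0, 0.341 and 0.553 CPM (6.99 ± 1.08, adjusted p = 0.00558). Tpm1 was at 669, 553 and 1326 CPM against 136, 126 and 145 CPM (2.65 ± 0.45, adjusted p = 0.0074), and Mylk, myosin light chain kinase, at 19.8, 14.9 and 9.06 CPM against 0.234, 0.487 and 0.17 CPM (adjusted p = 0.00334). Of 18 integrins tested (20 listed), 3 rose and none fell, with a median of 1.68 that was 0.56 without BA45198, and 1 to 3 rose with a line left out. Itgb8, the chain that activates latent TGF-beta, was at 86.9, 135 and 54.7 CPM against 2.52, 0.73 and 0.978 CPM (6.03 ± 1.0, adjusted p = 0.00685).

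Many of these genes also mark fibroblasts. Of 10 fibroblast markers, 8 were tested, 6 rose (Pi16, Lum, Dcn, Col3a1, Col1a2 and Dpt) and none fell. Besides the losses given above, Dpt kept its call without BA45198 only, and Pi16 lost it without BA47473 or BS53736. Their summed level was 1320 to 3680 CPM in Arid1a KO, 6.35 to 659 CPM in Smarcb1 KO, 5.49 to 174 CPM in Braf and 20.4 to 32.7 CPM in Arid2 KO lines. The highest Smarcb1 KO sum was nearly all Pdgfra, at 657 CPM in BS53965. Thy1, a defining fibroblast surface marker, was at 0 to 0.044 CPM in all 6 lines, and Col1a1 was at 10.2, 2.24 and 0.983 CPM in Arid1a KO against 0.14, 0.0487 and 0.34 CPM in Smarcb1 KO (adjusted p = 0.102). In bulk RNA more cells of a type and more RNA per cell cannot be told apart, and the part of fibroblast genes in the matrix difference was not tested.

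**Figure D2:**
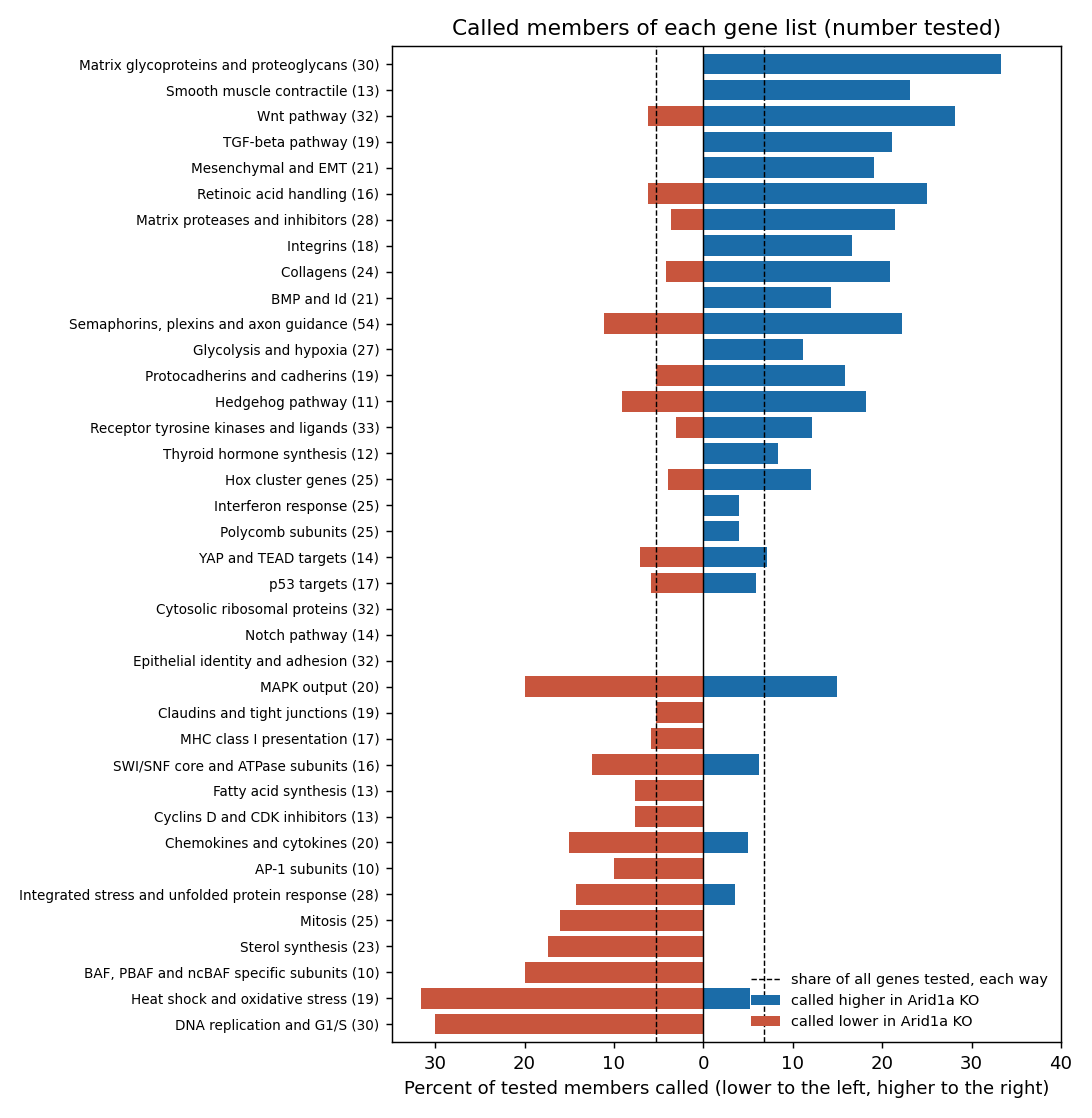
Percent of tested members called higher in Arid1a KO (blue, to the right) and lower (red, to the left) for each gene list with at least 10 tested members, the number tested in brackets, and dashed lines at the shares of all genes tested (6.8% and 5.31%). Matrix, contractile, Wnt and TGF-beta lists extend to the right, DNA replication, stress and sterol lists to the left, and MAPK output to both sides.

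Signals that pass between cells were rearranged in both directions. Of 54 semaphorin, plexin, ephrin and other axon guidance genes tested (58 listed), 12 rose and 6 fell, with a median difference of 0.80. These ligands and receptors steer growing nerve fibers and also control adhesion in epithelia and tumors. Sema5a, a semaphorin with thrombospondin repeats, was at 1583, 1197 and 816 CPM in Arid1a KO against 2.2, 3.99 and 2.85 CPM in Smarcb1 KO (8.63 ± 1.14, adjusted p = 0.00358). Slit2, a repulsive ligand, was at 94.9, 100 and 144 CPM against 6.45, 12.2 and 4.68 CPM (3.86 ± 0.41, adjusted p = 0.00142). Plxna1, a semaphorin receptor, was at 384, 288 and 394 CPM against 94.5, 135 and 132 CPM (adjusted p = 0.00444), and Efna1, an ephrin, also rose (3.62 ± 0.54, adjusted p = 0.005). Sema6b moved the other way, at 0.205, 0.484 and 0.214 CPM against 20.2, 32.0 and 9.99 CPM (-6.08 ± 1.08, adjusted p = 0.00913), as did Epha2, at 285, 187 and 551 CPM against 937, 1030 and 1119 CPM (-1.59 ± 0.37, adjusted p = 0.0243). Epha2 kept its call in 3 of the 6 fits with 1 line removed, losing it without BA45198, BA47473 or BS53965. With a line left out, 9 to 11 genes of the list rose and 2 to 7 fell, and the median was 0.11 without BA45198. The Braf values of Slit2 (173 to 299 CPM) were above those of Arid1a KO, and those of Plxna1 (265 to 402 CPM) overlapped them.

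Wnt pathway genes numbered 9 that rose and 2 that fell of 32 tested (38 listed), with a median of 1.17. Wnt ligands bind Frizzled receptors and, through beta-catenin, switch on targets with TCF factors. The receptors Fzd1 (240, 466 and 143 CPM against 2.2, 17.7 and 5.53 CPM, adjusted p = 0.00504) and Fzd5 (71.7, 33.2 and 111 CPM against 12.1, 7.35 and 15 CPM, adjusted p = 0.00736) rose, and so did Fzd8, a call lost without BA47473, and Fzd4, a call lost without 5 of the 6 lines in turn. Tcf7, the factor TCF1, was at 22.9, 40.0 and 37.8 CPM against 0.981, 0.925 and 1.23 CPM (4.99 ± 0.41, adjusted p = 0.000654). Axin2, a feedback inhibitor and common readout of the pathway, rose too (4.15 ± 0.73, adjusted p = 0.0087), from 1.75 to 2.25 CPM in Smarcb1 KO to 23.4 to 41.1 CPM. Dkk3, a secreted Dickkopf relative, was at 24.1, 11.7 and 8.72 CPM against 0.0467, 0.0487 and 0 CPM (adjusted p = 0.00142). The opposite held for Wif1, a secreted protein that binds and blocks Wnt ligands, at 0.103, 0.044 and 0.0428 CPM against 80.9, 26.2 and 24.8 CPM (-9.35 ± 0.96, adjusted p = 0.0014). Wif1 was at 0 to 0.102 CPM in the Braf lines, so its presence set the Smarcb1 KO lines apart from both. Sfrp4, another secreted inhibitor, was called lower but stood at 1294 CPM in BS53736 alone and at 0.341 and 0.68 CPM in the other Smarcb1 KO lines, and without BS53736 its adjusted p was 0.599. Its call was also lost without any one of the Arid1a KO lines, and 5 to 7 Wnt genes rose with a line left out.

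Of the other developmental pathways, TGF-beta counted 4 of 19 tested that rose and none that fell (median 0.57). Tgfbr2, the type II receptor that starts the signal, was at 338, 654 and 505 CPM against 67.6, 118 and 110 CPM (2.34 ± 0.46, adjusted p = 0.0135), with Braf lines at 386 to 1081 CPM. Tgfbi, a secreted target, was at 1611, 1107 and 174 CPM against 0.42, 1.8 and 0.425 CPM (10.09 ± 2.13, adjusted p = 0.017), a call lost without BS53736 or BS53965. The TGF-beta median was 0.03 without BA45198, and 1 to 5 genes rose with a line left out. Of 21 BMP and Id genes tested (22 listed), 3 rose and none fell (median 1.55, with 1 to 3 rises when a line was left out). That is 14.3% called, against 12.1% of all genes tested. Among the 3 was Id4, an inhibitor of helix-loop-helix factors, at 35.2, 32.4 and 20.9 CPM against 0.467, 0.828 and 0.255 CPM (5.83 ± 0.77, adjusted p = 0.00358). Hedgehog counted 2 that rose and 1 that fell of 11 tested (14 listed, median 0.85, and 0.20 without BA45198). Gas1, a co-receptor, rose from 10.2, 11.1 and 3.27 CPM to 136, 123 and 78.2 CPM (3.78 ± 0.58, adjusted p = 0.00558). Gli3, a factor that mostly represses, fell (-2.39 ± 0.53, adjusted p = 0.0203), a call lost without BA47473, BA49112 or BS53736. No Notch pathway gene was called by edgeR among 14 tested (19 listed). DESeq2 called 2 of them and limma-voom none, and 3 had an unadjusted p under 0.05. Retinoic acid handling had 4 that rose and 1 that fell of 16 tested (20 listed, median 0.62, and 0.30 without BA45198), with Rdh10, which makes retinal, at 281, 497 and 97.4 CPM against 18.7, 13.5 and 14.5 CPM (4.23 ± 0.61, adjusted p = 0.0046) and Stra6, the importer of retinol, at 40.4, 160 and 77.5 CPM against 0, 0.487 and 0 CPM (9.15 ± 1.34, adjusted p = 0.00473).

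Receptor tyrosine kinases and their ligands counted 4 that rose and 1 that fell of 33 tested (39 listed), near the background share, with a median of 0.29 that was 0.69 without BS53958. Egfr, the epidermal growth factor receptor, was at 35.1, 8.49 and 5.64 CPM in Arid1a KO, at 1021, 124 and 595 CPM in Smarcb1 KO and at 79.6, 112 and 144 CPM in Braf lines (-5.14 ± 0.99, adjusted p = 0.0124). The lowest Smarcb1 KO line stood above every Arid1a KO line, and the Braf lines were above the Arid1a KO lines and below BS53736 and BS53965. The Egfr call was lost without BA47473 (adjusted p = 0.0515). Fgf2, a fibroblast growth factor, was at 15.6, 18.4 and 14.0 CPM against 0.0467, 0 and 0 CPM (adjusted p = 0.00384), a ratio of pooled counts of 1050 with an exact Poisson interval from 187 to 41400. Mertk, a receptor for apoptotic cells, was at 27.1, 65.4 and 38.8 CPM against 0.841, 0.73 and 1.02 CPM (5.65 ± 1.02, adjusted p = 0.00965). Hgf, at least 79.5-fold higher against no count in Smarcb1 KO, and Ddr2, a collagen receptor, were the remaining rises. Hgf lost its call without any 1 line, and Ddr2 kept it without BA45198 or BA49112.

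Genes that report MAPK output, many of them feedback inhibitors of the RAF, MEK and ERK cascade, split: 3 rose and 4 fell of 20 tested, with a median difference of 0.09. With a line left out, 2 to 3 rose and 1 to 5 fell. Dusp4, a phosphatase of nuclear ERK, was at 79.2, 63.2 and 115 CPM against 4.72, 15.6 and 4.59 CPM (3.37 ± 0.58, adjusted p = 0.00785), with Braf lines at 129 to 277 CPM. Etv4, an ETS factor downstream of ERK, was at 183, 180 and 132 CPM against 45.4, 36.7 and 61.5 CPM (1.78 ± 0.28, adjusted p = 0.00558). Phlda1 was called higher as well and kept its call without BS53958 only. Spred2, a membrane inhibitor of RAS to RAF signalling, was at 117, 75.3 and 115 CPM against 395, 204 and 341 CPM (-1.61 ± 0.29, adjusted p = 0.00965). Ier3, Epha2 and Myc fell too, Ier3 at 27.7, 22.1 and 27.9 CPM against 106, 46.6 and 109 CPM (adjusted p = 0.0141, lost without BA47473) and Myc at 48.3, 65.8 and 119 CPM against 181, 183 and 247 CPM (adjusted p = 0.042, kept without BA49112 only). Dusp6, a phosphatase of cytoplasmic ERK, was at 362, 212 and 165 CPM against 97.2, 150 and 202 CPM, and its log2 difference of 0.72 ± 0.36 missed the threshold (adjusted p = 0.213). The same held for Spry4 at 197, 201 and 207 CPM against 483, 221 and 489 CPM (-0.98 ± 0.63, adjusted p = 0.328), Dusp5 (-1.44 ± 0.46, adjusted p = 0.0674), Etv5 (0.63 ± 0.36, adjusted p = 0.275) and Spry2 (0.68 ± 0.51, adjusted p = 0.406). Ccnd1 was at 1511, 1648 and 2279 CPM against 1227, 1986 and 2060 CPM (0.04 ± 0.26, adjusted p = 0.929). In Map3k6, a kinase that feeds the JNK and p38 branch, the groups were far apart: 2.87, 5.59 and 9.79 CPM against 186, 265 and 239 CPM (-5.23 ± 0.64, adjusted p = 0.00247), with Braf lines at 2.93 to 8.82 CPM.

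**Figure D3:**
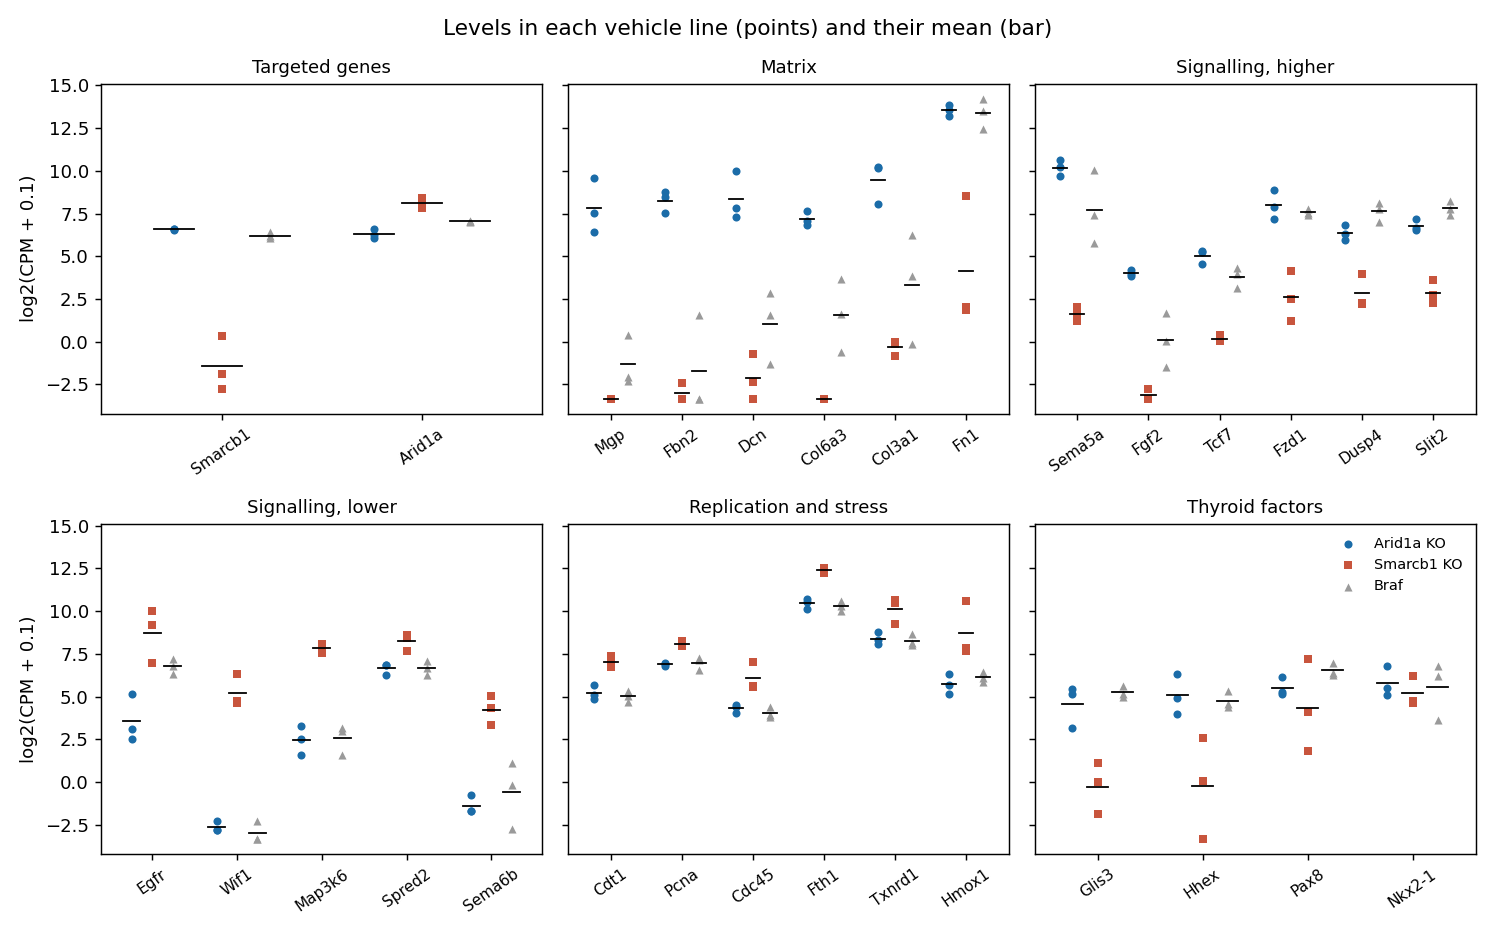
Level of each gene, as log2(CPM + 0.1), in the 3 vehicle lines of Arid1a KO (circles), Smarcb1 KO (squares) and Braf (triangles), with the mean of each group as a bar. For Mgp, Fbn2 and Dcn the Arid1a KO lines stand above both other genotypes, for Wif1 and Map3k6 the Smarcb1 KO lines do, and for Fn1, Slit2 and Dusp4 the Smarcb1 KO lines lie below both.

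Thyroid identity was examined next. PAX8, NKX2-1, FOXE1 and HHEX are the transcription factors that together define the follicular cell, and GLIS3 is a further factor needed for hormone synthesis. Glis3 was at 34.8, 42.9 and 8.76 CPM in Arid1a KO, at 0.888, 2.05 and 0.17 CPM in Smarcb1 KO and at 31.8, 48.5 and 35.1 CPM in Braf lines (4.80 ± 0.89, adjusted p = 0.0113). It was the one of the 5 factors that was called, and the call held in all 13 alternatives. Hhex was at 81.4, 15.6 and 30.4 CPM against 5.89, 0 and 0.935 CPM, without overlap, at 4.22 ± 1.25 and an adjusted p of 0.0538. Pax8 was at 70.3, 37.9 and 35.1 CPM against 144, 3.46 and 16.7 CPM (-0.20 ± 1.01, adjusted p = 0.919) and Nkx2-1 at 108, 44.9 and 34.5 CPM against 74.7, 26.5 and 24.3 CPM (0.58 ± 0.80, adjusted p = 0.672), so that both markers of thyroid origin were present in all 6 lines. Foxe1 reached 0.154 CPM at most. Of 23 genes of hormone synthesis only 12 passed the filter, and Kcnq1, a potassium channel of the follicular cell, was the one called (6.38 ± 1.5, adjusted p = 0.025, a call kept in 2 of 6 fits with a line left out). Tg, the hormone precursor, was at 17.3, 0.66 and 1.03 CPM against 0.374, 1.12 and 0.468 CPM (adjusted p = 0.109).

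Epithelial genes varied widely between lines of the same genotype. Of 32 epithelial identity and adhesion genes tested (34 listed), none was called by edgeR, while DESeq2 called 7, limma-voom none, and 6 had an unadjusted p under 0.05. Their median difference was -2.73. Without BS53958 that median was 0.57. Cdh1, E-cadherin, was at 1.49, 3.17 and 0.171 CPM in Arid1a KO and at 0.14, 26.4 and 0.085 CPM in Smarcb1 KO. Krt7, a keratin of simple epithelia, was at 30.6, 74.6 and 4.32 CPM against 0.0934, 133 and 0 CPM, and Cldn4, a tight junction claudin, at 0.564, 0.176 and 0 CPM against 0, 26.3 and 0 CPM. In each of these genes BS53958 was the highest of the 6 lines, and all 6 were below B47275 and B48051, which held Cdh1 at 776 and 684 CPM, while B52482 held it at 0.51 CPM. Krt8 and Krt18, the keratins shared by all simple epithelia, were at 69.0 to 153 CPM and 166 to 252 CPM in Arid1a KO and at 0.0425 to 80.8 CPM and 0 to 66.5 CPM in Smarcb1 KO, against at least 632 and 674 CPM in Braf lines.

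**Figure D4:**
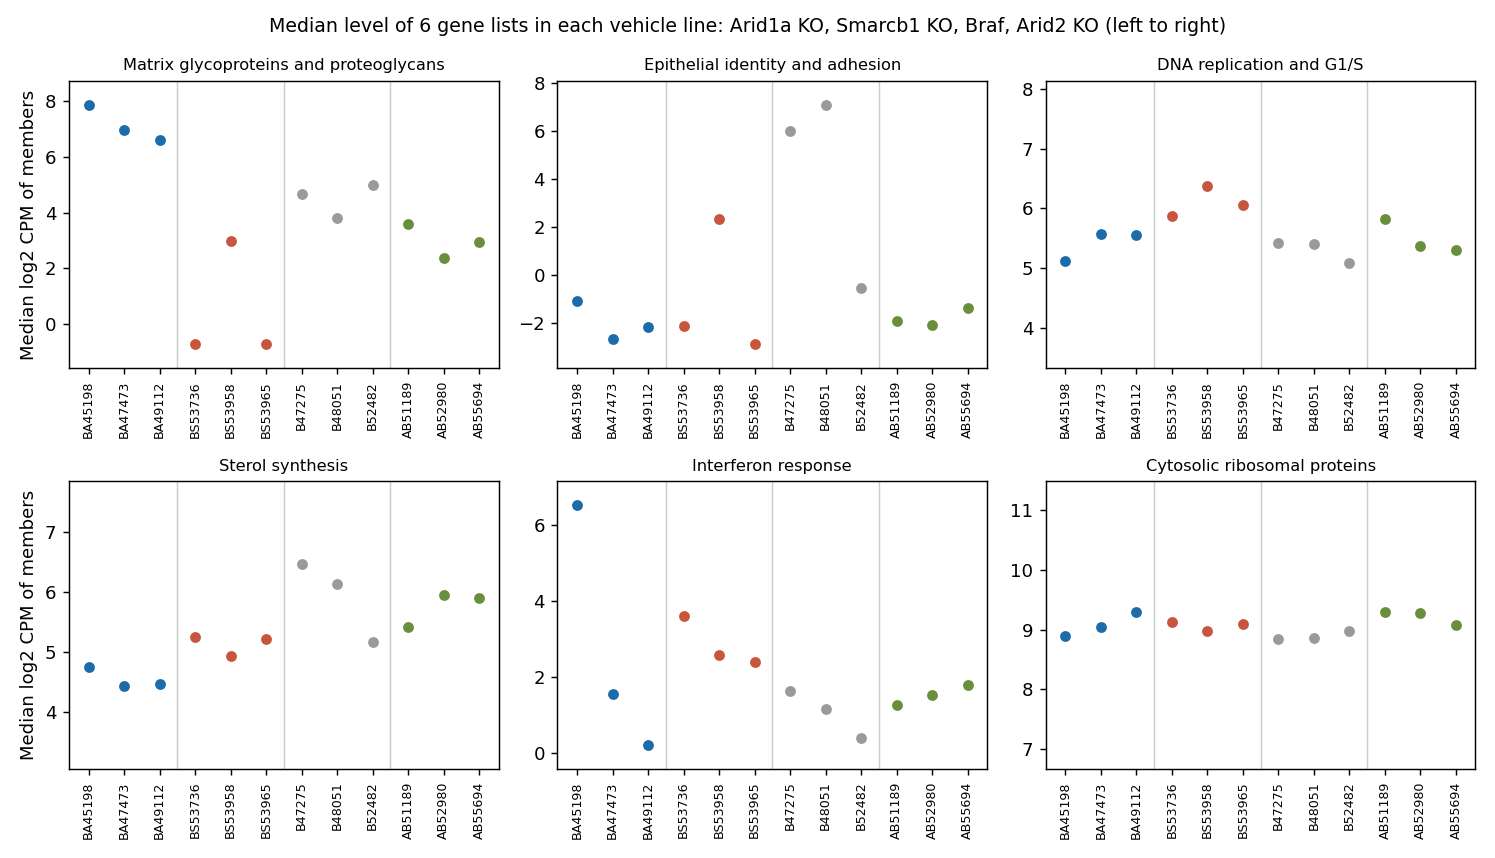
Median log2 CPM of the tested members of 6 gene lists in each of the 12 vehicle lines, with Arid1a KO in blue, Smarcb1 KO in red, Braf in grey and Arid2 KO in green. The matrix, replication and sterol lists separate the 3 blue from the 3 red points, the epithelial list singles out BS53958 among the knockouts and B52482 among the Braf lines, and the interferon list singles out BA45198. The ribosomal protein list is at like levels in all lines.

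Genes of DNA replication were lower in Arid1a KO. Of 30 tested, 9 fell and none rose, where 5.31% of all genes tested were called lower. The groups did not overlap in 22 of the 30, against 36.1% of all genes tested, and the median difference was -0.84. Cdt1, which licenses origins, was at 28.9, 34.1 and 52.1 CPM against 120, 166 and 104 CPM (-1.76 ± 0.31, adjusted p = 0.00906). Pcna, the sliding clamp, was at 120, 126 and 112 CPM against 252, 310 and 260 CPM (-1.20 ± 0.24, adjusted p = 0.015). Cdc45, a helicase component, was at 16.5, 20.9 and 22.5 CPM against 46.7, 131 and 49.5 CPM (-1.92 ± 0.41, adjusted p = 0.0178), and Pola1, a polymerase primase subunit, at 33.4, 51.1 and 30.7 CPM against 112, 78.0 and 92.9 CPM (-1.30 ± 0.31, adjusted p = 0.0262). Every Smarcb1 KO line exceeded every Arid1a KO line in these 4 genes. Mcm7, Mcm5, Pole, Rrm2 and Uhrf1 completed the list, each losing its call without any 1 line. Braf lines were close to Arid1a KO, with Pcna at 140, 153 and 94.8 CPM and Cdt1 at 40.2, 32.4 and 26.1 CPM. Cdt1 kept its call whichever line was left out, whereas Pcna lost it without BA45198, Cdc45 without BA45198 or BA47473, and Pola1 without 4 of the 6 in turn. With a line removed, between 1 and 4 of the 30 genes were called lower.

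Mitosis genes followed with 4 that fell and none that rose of 25 (median -0.65): Prc1, Nusap1, Ttk and Kif23, whose calls held in at most 3 of the 6 fits with a line left out. Rb1, which restrains entry into the cell cycle, was at 21.8, 24.8 and 25.0 CPM against 108, 49.8 and 94.6 CPM (-1.82 ± 0.26, adjusted p = 0.0046), and was the only call among 13 D-type cyclins, their kinases and CDK inhibitors. Sterol synthesis counted 4 that fell and none that rose of 23 tested (24 listed, median -0.71). Dhcr7, which catalyses the final step to cholesterol, was at 10.6, 9.6 and 6.71 CPM against 22.4, 65.6 and 28.4 CPM (-2.11 ± 0.48, adjusted p = 0.0219). Sc5d, a sterol desaturase, was at 26.6, 21.3 and 19.4 CPM against 61.5, 37.8 and 66.7 CPM (-1.30 ± 0.29, adjusted p = 0.0202), and Sc4mol (now Msmo1), a sterol oxidase, also fell. Each of the 4 calls held in at most 3 of the 6 fits with a line removed. Braf lines were above every Arid1a KO line in Dhcr7 and Sc5d, with Dhcr7 at 25.8, 52.7 and 20.4 CPM and Sc5d at 88.8, 55.9 and 46.5 CPM.

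Genes of the oxidative stress and heat shock response gave 6 that fell and 1 that rose of 19 tested, with a median difference of -0.25. The antioxidant genes among them are classic targets of NRF2, a factor that binds antioxidant response elements. Hmox1, heme oxygenase, was at 36.1, 50.1 and 81.1 CPM against 203, 227 and 1544 CPM (-3.56 ± 0.80, adjusted p = 0.0212). Txnrd1, thioredoxin reductase, was at 268, 316 and 435 CPM against 1589, 602 and 1423 CPM (-1.82 ± 0.40, adjusted p = 0.0202), and Srxn1, sulfiredoxin, at 193, 226 and 426 CPM against 626, 917 and 666 CPM (-1.39 ± 0.30, adjusted p = 0.0182). In none of the 3 did the knockout genotypes overlap. Braf lines overlapped Arid1a KO in Hmox1 (57.7 to 87.9 CPM) and Txnrd1 (259 to 403 CPM). In Srxn1 they were at 131 to 193 CPM, reaching at most about the lowest Arid1a KO value. Gclm, the modifier subunit of glutathione synthesis, and Gsr, glutathione reductase, fell by smaller amounts (-1.11 ± 0.30 and -1.23 ± 0.29, adjusted p = 0.0378 and 0.0259), Gclm keeping its call in 2 and Gsr in 1 of the 6 fits with a line left out. Gclc, the catalytic partner of Gclm, at -0.49 ± 0.24 (adjusted p = 0.201), and Nqo1, at 0.513, 0.176 and 4.75 CPM against 0.0934, 1.02 and 12.7 CPM (adjusted p = 0.632), were not called. Fth1, the ferritin heavy chain that stores iron, was at 1466, 1134 and 1699 CPM against 5952, 4761 and 5884 CPM (-1.95 ± 0.22, adjusted p = 0.00172), with Braf lines at 1013, 1259 and 1566 CPM. Its fall in CPM was the largest among called genes without overlap and with a mean log2 CPM of at least 2. The calls of Hmox1 and Srxn1 were lost without BA45198 or BA47473 (highest adjusted p = 0.0818), that of Txnrd1 without 4 of the 6 lines in turn, and that of Fth1 in none of the alternatives. Fth1 has pseudogene copies, so reads could have been split between them. With a line left out, 0 to 5 genes of the list fell.

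The RefSeq promoter table (build GRCm38.p6) was searched for the antioxidant response element core TGACNNNGC on both strands, in the 250 bases before each start. Of 8 antioxidant and iron genes looked up after their values were seen, 5 had an entry, and the element was found in Gclm and in 1 of the 3 windows of Txnrd1. It was present in 10.2% of all 32851 windows of the table. The windows of the 8 genes were filtered by chromosome, and those behind this share were not. Both windows with a match are shown, with the element in capitals, on the plus strand at chr3:122245307-122245556 and chr10:82858956-82859205, upstream of the start. Fth1 and Srxn1 fell too, but their windows held no match and are not shown.
Gclm: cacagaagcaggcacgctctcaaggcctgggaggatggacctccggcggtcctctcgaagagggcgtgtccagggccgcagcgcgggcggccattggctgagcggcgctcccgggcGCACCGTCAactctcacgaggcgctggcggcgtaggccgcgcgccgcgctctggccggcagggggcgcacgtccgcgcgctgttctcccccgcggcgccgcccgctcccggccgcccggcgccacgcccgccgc
Txnrd1: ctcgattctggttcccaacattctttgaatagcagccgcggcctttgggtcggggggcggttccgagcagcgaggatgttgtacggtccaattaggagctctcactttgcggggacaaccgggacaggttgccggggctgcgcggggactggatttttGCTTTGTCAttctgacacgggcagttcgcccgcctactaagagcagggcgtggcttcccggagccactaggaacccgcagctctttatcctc
In Gclm the element begins 134 bases and in Txnrd1 92 bases before the start, in the reverse orientation. No match in the windows of Fth1, Nqo1 and Srxn1 says only that these letters are not there. The Srxn1 window holds TGAGTCAGC, which misses the searched core only by a G in place of its fixed inner C. This variant was seen after the search and has no share over all windows beside it. Binding of any factor was not tested.

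Of the heat shock genes on that list, Hspa8, the constitutive chaperone, fell (948, 998 and 1073 CPM against 1920, 1705 and 1851 CPM, adjusted p = 0.0152), a call lost without BA45198 or BA47473. Cryab, a small heat shock protein, rose (63.0, 51.2 and 145 CPM against 2.29, 5.06 and 4.17 CPM, 4.49 ± 0.60, adjusted p = 0.00384), with Braf lines at 107 to 288 CPM. The integrated stress and unfolded protein response counted 1 that rose and 4 that fell of 28 tested (median 0.18). Ddit3, the factor CHOP, was at 18.8, 9.68 and 15.4 CPM against 49.2, 33.8 and 33.8 CPM (-1.41 ± 0.28, adjusted p = 0.014), and Chac1, a glutathione-degrading enzyme induced by ATF4, at 1.49, 0.792 and 4.7 CPM against 20.6, 19.0 and 23 CPM (-3.16 ± 0.62, adjusted p = 0.0133, lost without BA45198). Cebpb and Ppp1r15a fell as well, Cebpb losing its call without BA45198 or BA47473 and Ppp1r15a without 5 of the 6 lines in turn, while Atf6, a sensor of unfolded proteins, rose from 47.8, 53.8 and 41.6 CPM to 141, 262 and 292 CPM (2.28 ± 0.45, adjusted p = 0.0139, lost without BS53965). The median of this list was 0.46 without BA45198, and 1 to 4 members fell with a line left out. Atf3, a stress-induced member of the AP-1 family, was at 6.0, 4.14 and 5.3 CPM against 75.7, 43.9 and 33.3 CPM (-3.31 ± 0.50, adjusted p = 0.00513), the only call among 10 AP-1 genes tested (12 listed). Ndrg1, a hypoxia-induced gene, was at 93.7, 135 and 130 CPM against 1.49, 5.84 and 0.17 CPM (5.58 ± 1.13, adjusted p = 0.0147, lost without BS53736), and with Egln3 and Vegfa made up the 3 rises and no falls among 27 glycolysis and hypoxia genes tested (28 listed, median 0.16, and 0.57 without BS53965). In this list 11.1% of the tested genes were called, against 12.1% of all genes tested. Egln3 and Vegfa each kept their call in 1 of the 6 fits with a line left out.

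Of 25 interferon-induced genes tested (28 listed), 1 did not overlap between the genotypes, against 36.1% of all genes tested. Ifi44 was called higher, but its level of 114 CPM in BA45198 compared with 0.704 CPM in BA47473 and 0.171 CPM in BA49112, and without BA45198 its adjusted p was 0.222. Its call was also lost without any one of the Smarcb1 KO lines. The median difference of the list was 1.91 with all lines and -0.84 without BA45198. Among secreted attractants, Cxcl2 was at 0.103, 0.044 and 0.641 CPM against 41.6, 5.55 and 79.3 CPM (-7.28 ± 1.43, adjusted p = 0.0135, lost without BA45198), and Cxcl1 and Ccl25 fell too, each losing its call without 5 of the 6 lines in turn. Cxcl12 rose, with 51.5 CPM in BA45198 and 2.24 and 0.898 CPM in the others, and without BA45198 its adjusted p was 0.0623. The Cxcl12 call was also lost without any one of the Smarcb1 KO lines (highest adjusted p = 0.0819) and in the limma-voom fit (adjusted p = 0.564). The list held 20 tested genes of 32 (median -0.11, and 2.42 without BS53958), and leukocyte markers were near 0: of 10, 9 stayed under 1 CPM in all 6 lines, Cd68 alone reaching 13 CPM.

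Other SWI/SNF subunits were compared next. Of 16 core and ATPase subunits tested, Smarcb1 rose and Smarca4 and Actb fell. Of 10 subunits specific to one complex, Arid1a and Dpf1 fell. Smarcb1 and Arid1a are the targeted genes, so the choice of lines fixed their calls. That leaves Smarca4, Actb and Dpf1, where 12.1% of all genes tested were called. Dpf1 lost its call without any 1 line and Actb without BA45198, BA47473 or BS53965. Smarca4, the ATPase BRG1, was at 310, 292 and 340 CPM against 494, 527 and 492 CPM (-0.69 ± 0.13, adjusted p = 0.0124), with Braf lines at 271 to 345 CPM. Its call was lost without BA47473 (adjusted p = 0.0551). Arid1b, the paralog of Arid1a, was at 141, 122 and 101 CPM against 158, 100 and 145 CPM (-0.15 ± 0.25, adjusted p = 0.737). Of 25 Polycomb subunits, whose complexes repress genes that SWI/SNF opens, only Bmi1 was called, at 155, 154 and 121 CPM against 91.2, 66.4 and 76.7 CPM (0.88 ± 0.15, adjusted p = 0.00742). Of 25 Hox genes tested (39 listed), 16% were called, against 12.1% of all genes tested: 3 rose and 1 fell (median 1.51). The 3 are neighbours in one cluster, Hoxa2, Hoxa3 and Hoxa4, of which Hoxa3 was at 32.6, 21.3 and 14.7 CPM against 0.234, 0.0974 and 0.34 CPM (6.63 ± 1.20, adjusted p = 0.00966) and alone kept its call without any 1 line. No cytosolic ribosomal protein gene was called by edgeR among 32 (median -0.05). DESeq2 called 2 of these and limma-voom none, and 3 had an unadjusted p under 0.05.

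By log2 difference, among called genes without overlap and with a mean log2 CPM of at least 2, the 12 largest falls were Slc38a1, Tbx20, Asb5, Rhpn2, Lass4 (now Cers4), Ctnnd2, Syt7, Sirpa, C1s, Nlgn3, Cav1 and Map3k6. Slc38a1, a glutamine transporter, was at 0, 0.088 and 0.171 CPM in Arid1a KO against 220, 79.4 and 178 CPM in Smarcb1 KO (-10.69 ± 1.38, adjusted p = 0.00338), and Braf lines held it at 64.0, 180 and 22.6 CPM. Here the Arid1a KO lines were the ones that differed. In Asb5, a substrate adaptor of ubiquitin ligases (0.667, 0.484 and 0.299 against 207, 45.1 and 61.8 CPM, adjusted p = 0.00766), and C1s, a complement protease (3.59, 1.19 and 0.342 against 86.0, 121 and 27 CPM, adjusted p = 0.00779), Braf lines were at 1.71 CPM or less. Nlgn3, a synaptic adhesion protein, was at 0.513, 0.572 and 0.77 CPM against 40.9, 15.4 and 26.0 CPM (-5.46 ± 0.48, adjusted p = 0.0008), and Syt7, a calcium sensor of exocytosis, at 1.59, 0.308 and 2.99 CPM against 73.1, 62.0 and 135 CPM (adjusted p = 0.00785). Of the 12, Slc38a1, Asb5, Syt7, C1s, Nlgn3 and Map3k6 kept their calls in all 13 alternatives, whereas Lass4 lost its call without any 1 line, Tbx20, Sirpa and Cav1 without 5 of the 6 in turn, and Rhpn2 and Ctnnd2 without BA45198 or BA47473.

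The 12 largest rises by the same rule were Mgp, Mmp2, Fbn2, Trf, Adam19, Dcn, Aqp1, Gcnt4, Igfbp5, Inmt, Col3a1 and Tgfbi. Aqp1, a water channel, was at 184, 295 and 115 CPM against 0.187, 0.0487 and 0.0425 CPM (10.99 ± 1.84, adjusted p = 0.00707). Gcnt4, which branches O-linked sugars, was at 219, 194 and 196 CPM against 0.14, 0.195 and 0.085 CPM (10.46 ± 1.57, adjusted p = 0.00524), and Trf, transferrin, at 434, 346 and 17.4 CPM against 0, 0.243 and 0.0425 CPM (11.40 ± 2.16, adjusted p = 0.0117). Igfbp5 and Inmt lost their calls without any 1 line. By CPM, Ctsb, the lysosomal protease cathepsin B, rose from 521, 319 and 469 CPM to 3638, 1853 and 2768 CPM (2.66 ± 0.48, adjusted p = 0.00935), and Slc30a4, a zinc exporter, from 170, 112 and 193 CPM to 968, 991 and 1463 CPM (2.85 ± 0.47, adjusted p = 0.00697). Voltage-gated calcium channels had 3 rises and no fall among 9 tested (17 listed). Cacna1a, the P/Q-type pore, was at 50.9, 64.4 and 103 CPM against 1.64, 1.41 and 0.723 CPM (5.85 ± 0.46, adjusted p = 0.000518) and Cacnb2, an auxiliary subunit, at 39.6, 37.1 and 19.0 CPM against 0, 0.0974 and 0.128 CPM (adjusted p = 0.00217), with Cacna1a at 2.82 to 5.24 CPM in Braf lines. Among protocadherins and cadherins (19 tested of 26 listed) Pcdh19 (388, 319 and 425 against 1.82, 10.6 and 5.19 CPM, adjusted p = 0.00665), Pcdh18 and Pcdh8 rose and Pcdh10 fell.

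A fit of the 24 tumor line libraries with limma-voom and a correlation of 0.486 within lines ended 54 of the 155 calls of named genes. It called 1821 genes, of which 1222 were among the 1733. Mgp (adjusted p = 0.0975), Mmp2 (0.107), Fbn2 (0.0643), Col3a1 (0.16), Col12a1 (0.0656), Serpine2 (0.0659), Tgfbi (0.13), Mylk (0.114), Id4 (0.152), Stra6 (0.11) and Trf (0.0774) were not called in it, nor was Etv4 (0.0589). The matrix genes Emilin1 (0.114), Lum (0.125), Bgn (0.0711), Fbln5 (0.298), Col16a1 (0.149), Col1a2 (0.214), Adam19 (0.0691) and Timp3 (0.13) were not called either. Of the matrix glycoproteins and proteoglycans that rose, Dcn, Fn1, Tnc and Lama5 stayed called. Of the collagens that rose, only Col6a3 did. Dcn, Col6a3, Mmp19, Tpm1, Tpm2, Itgb8, Sema5a, Slit2, Tcf7, Fzd1, Dusp4, Spred2, Cdt1, Glis3, Fth1 and Wif1 were called in all 13 alternatives.

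The Braf vehicle lines placed most called genes closer to Arid1a KO. By mean log2 CPM, they were nearer to Arid1a KO in 722 of the 973 genes that rose (74.2%) and in 553 of the 760 that fell (72.8%), where the share over all genes tested was 62%. Arid2 KO lines were nearer to Arid1a KO in 66.4% and 70% of these genes, against 59.2% over all tested. The Braf range overlapped the Arid1a KO range only in 553 genes that rose and the Smarcb1 KO range only in 155, and for genes that fell these counts were 418 and 157. No test of these shares was made. They rest on the mean of the Braf lines, which differed from each other. Over all genes tested, B52482 correlated with the Arid1a KO lines at 0.913 to 0.915. B48051 did so at 0.794 to 0.809, and at 0.764 to 0.825 with the Smarcb1 KO lines.

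Under CKI the same lines gave levels that can be set beside the vehicle values but are not independent of them. Without overlap and in the same direction, 740 of the 973 genes that rose (76.1%) and 461 of the 760 that fell (60.7%) also separated the genotypes under CKI, against 42.1% and 32.3% of all genes tested by the sign of their vehicle difference. In the opposite direction this was so for 6 and 9 genes. Over all genes tested, split by the same sign, it was so for 387 of 6870 and 548 of 7443. Among the 9 were Dhcr7, at 40.4, 38.1 and 32.5 CPM in Arid1a KO against 24.6, 17.1 and 28.5 CPM in Smarcb1 KO under CKI, and Ier3, at 285, 96.3 and 74.9 CPM against 8.61, 57.6 and 23.4 CPM. CKI libraries of BS53958 and BS53965 held 11684983 and 2884130 counts, fewer than the vehicle libraries. Col3a1 was at 934, 1049 and 2422 CPM in Arid1a KO and at 1.02, 1.35 and 6.29 CPM in Smarcb1 KO under CKI, and Slc38a1 at 0, 0.189 and 0.0878 CPM against 140, 51.0 and 93.8 CPM, the same order as in vehicle. Wif1 was at 1.74, 1.89 and 1.01 CPM against 0.82, 3.37 and 4.5 CPM, so that the groups overlapped and the high level of the Smarcb1 KO lines in vehicle was not seen. Tcf7 was at 1.86, 5.07 and 3.42 CPM against 7.09, 0.59 and 1.5 CPM and Dusp4 at 17.6, 10.8 and 14.7 CPM against 2.99, 16.3 and 3.0 CPM, both overlapping. Cdt1 kept its order, at 5.38, 14.7 and 10.2 CPM against 68.8, 124 and 82.4 CPM, as did Spred2, at 48.2, 56.2 and 66.0 CPM against 216, 187 and 251 CPM.

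Markers of other cell types were looked at in the 6 lines. Parathyroid, red blood cell and skeletal muscle markers summed to at most 6.43 CPM in any of them, C cell markers to at most 11.4 CPM, and adipocyte markers to at most 5.03 CPM, nearly all of it Pparg. Endothelial markers summed to 14.6 to 84.2 CPM in Arid1a KO and to between 0.877 and 1070 CPM in Smarcb1 KO, and Pecam1, a defining marker, was at 6.63, 0.0974 and 5.49 CPM in Smarcb1 KO against at most 0.154 CPM. Pecam1 was called lower in Arid1a KO, a call kept without BS53958 only, and Pparg higher, a call lost without BA45198, BS53736 or BS53965. Schwann and neural crest markers reached 601 CPM in BS53958, of which Ngfr made up 594 CPM. The part of these genes in the comparison was not tested, and the number of called genes without BS53958 was 1339 and without BS53965 was 932.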

How the data were processed

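RNA-seq libraries of 12 mouse thyroid tumor lines, each in vehicle and under CKI, were deposited by the authors as a table of raw read counts per gene symbol. The submitters' processing notes name STAR 2.4, HTSeq 0.6.1, DESeq2 and the build mm9, without their roles. The strand setting is not given in the sources used here, so overlapping antisense genes cannot be told apart. Columns were matched to samples by genotype, treatment and line number.

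From the deposited counts, the 12 vehicle libraries (4 genotypes, 3 lines each, 8 residual degrees of freedom) were fitted with edgeR 4.0.16 in R 4.3.3: filterByExpr by group, TMM, the quasi-likelihood test and Benjamini-Hochberg adjustment over 14317 of 33924 symbols. CKI libraries were left out because they share lines with the vehicle libraries. The SE was taken as the absolute log2 difference over the square root of F and is approximate. A group with no count was set to a floor of 3 counts over its 3 libraries for a bound, and for 1 to 3 counts the ratio has an exact Poisson 95% interval. These cover counting error only. The script was tested on simulated counts.

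The 54 gene lists hold 1077 entries, of which 1071 were found. The members and lists were chosen with earlier results of these data known. Named genes are the targeted genes, up to 4 called members per list and direction with the smallest adjusted p, the 12 largest changes each way by log2 and the 8 by CPM, and all thyroid factors and MAPK output genes. Other list members are named to complete a count, as background comparison or after their values were seen, as were the marker genes and antioxidant genes. List medians are given for at least 10 tested members, and setting genes with a group at 0 to their bound did not change them. Alternatives were RLE size factors, no filter, a filter of 1 CPM in 3 libraries, fits of 6 and 24 libraries, DESeq2 1.42.0, limma-voom (limma 3.58.1) with a correlation within lines, and each of the 6 lines left out. Results for some genes are not reported here.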

Additional observations from a re-analysis of the deposited data

How the results depend on the processing

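No paired analysis was possible because the 2 genotypes share no line or replicate number. DESeq2 called 3252 genes, 1843 higher and 1409 lower, over 1.5 times the edgeR count. With 1 line left out the count of called genes lay between 753 and 1339, of those higher between 483 and 761, and of those lower between 241 and 610. The other settings gave 1354 to 2157 calls. The fit of only the 6 compared libraries ended 25 calls of named genes. Among these were Fn1, Col7a1, Hmox1, Srxn1, Epha2, Gli3, Myc, Phlda1, Actb and Cxcl12. Of the 155 named genes called, none changed direction, and 16 to 71 lost the call under a given fit other than RLE size factors, the 1 CPM filter and DESeq2, which ended none among the genes they tested. The limma-voom fit moved the median log2 difference of the mesenchymal list to 2.90, TGF-beta to 1.04, Wnt to 1.57 and receptor tyrosine kinases to 1.16, and the cause was not tested. Depth limits the genes near 0 CPM, whose fitted differences rest on few reads. With 1 line left out, list medians ranged for SWI/SNF core and ATPase subunits from -0.18 (without BS53965) to -0.042 (BS53736), BAF, PBAF and ncBAF specific subunits from -0.16 (without BS53958) to -0.062 (BS53736) and epithelial identity and adhesion from -3.14 (without BS53736) to 0.57 (BS53958). They ranged for collagens from 0.70 (without BA47473) to 2.75 (BS53958), matrix glycoproteins and proteoglycans from 3.10 (without BA45198) to 5.82 (BS53958) and matrix proteases and inhibitors from 0.44 (without BA47473) to 1.46 (BS53736). They ranged for TGF-beta pathway from 0.035 (without BA45198) to 0.63 (BA49112), Wnt pathway from 0.80 (without BA45198) to 1.82 (BS53958) and sterol synthesis from -0.88 (without BA45198) to -0.61 (BA47473). They ranged for interferon response from -0.84 (without BA45198) to 2.48 (BA49112), MHC class I presentation from -1.17 (without BA45198) to 0.32 (BA49112) and claudins and tight junctions from -1.99 (without BA45198) to -0.10 (BS53958). Axon guidance ranged from 0.11 (without BA45198) to 1.16 (BS53736), and chemokines and cytokines from -0.41 (without BA45198) to 2.42 (BS53958).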
